A study of Arabidopsis thaliana with 4 samples.

Results

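The transcript levels of cold-treated sfr6-3 seedlings were set against those of the wild type treated beside them, 1 array a side. The comparison was described over the probe sets that pair with a single gene and whose mean log2 value over all 4 arrays of the study reached the 40th percentile. These were 7280 probe sets for 7204 genes, out of 22746 probe sets that are not array controls and 13355 genes with a single-gene probe set. Seedlings of Arabidopsis thaliana were 7 days old and had been held at 5 °C for 6 h in the light. The sfr6-3 line carries the T-DNA insertion WiscDsLox504A08, and its control was the wild type Col-0 of the same experiment. A separate experiment held the insertion line sfr6-2 (SALK_048091) and its own Col-0 under the same treatment. Its values are set beside those of sfr6-3, and its Col-0 serves in places as another control. Its arrays also count in the mean used to choose the genes. All 4 groups were cold-treated, so the values compare genotypes in the cold and say nothing of the response to cold itself.

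SFR6 encodes a subunit of Mediator, MED16. Mediator is the complex through which transcription factors reach RNA polymerase II, and mutants in SFR6 were first known for their sensitivity to freezing. In the wild type, cold induces the CBF transcription factors, which bind the promoters of COR genes, and the products of those genes protect membranes and proteins as cells freeze and lose water. The comparison asks which transcripts differ in level after a short cold treatment when this Mediator subunit is disrupted.

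SFR6 itself had 0 single-gene probe sets, as did CBF1, CBF2, CBF3, RD29A and KIN1, so a check of the labels against SFR6 itself was not possible. Each group is 1 array, so no difference below has a replicate check and none was tested. Values are log2 MAS5 expression values, in which a difference of 1 is a 2-fold change, and a gene was called lower or higher when its difference reached 2-fold. In whole seedlings, fewer cells of a type and less RNA per cell cannot be told apart. The green-tissue genes PRK, PSBW, RCA, LHCB4.1 and rbcL stood between 12.63 and 14.84 in Col-0 and between 12.63 and 14.74 in sfr6-3. The root-hair expansins EXPA7 and EXPA18 stood between 5.91 and 6.37 in both arrays, under the filter level of 6.46, with differences of 0.03 and -0.15, while PYK10, a root beta-glucosidase, was at 13.88 and 13.40. Against the Col-0 of the sfr6-2 experiment, these 3 root genes had a median of -1.56 in sfr6-3 and the 5 green-tissue genes -0.60. Between the 2 Col-0 arrays the root genes differed by a median of 1.59, higher in the sfr6-2 experiment. The cause was not tested. The 4 reference genes had a median difference of 0.12, against 0.11 for all genes described.

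In sfr6-3, 277 genes were at least 2-fold lower than in Col-0, which is 3.85% of the genes described, and 270 were at least 2-fold higher, which is 3.75%. Counts of both directions were nearly equal, but the sizes were not. At least 4-fold, 44 genes were lower and 10 were higher. The differences had a standard deviation of 0.57 over genes, and 68.7% of genes lay within 0.5 of 0. The 2 Col-0 arrays, of the same genotype and treatment in different experiments, had a wider spread, with a standard deviation of 0.67 and with 404 and 339 genes at least 2-fold apart in the 2 directions. A difference of 2-fold in a single gene is therefore within the range seen between the wild-type arrays of the 2 experiments. The balance of directions depended on the scaling, since cyclic loess normalization gave 364 lower and 155 higher genes and moved the median of all genes from 0.11 to -0.02.

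The lower and the higher genes also differed in how bright they were. Genes were ranked by mean level, and among the 1441 dimmest 7.70% were higher in sfr6-3 and 4.02% were lower. Among the 1441 brightest, 0.833% were higher and 5.14% were lower. A value under the filter level in at least 1 of the 2 arrays was held by 95 of the 270 higher genes and by 50 of the 277 lower genes. When values under that level were raised to it, 205 higher and 252 lower genes still differed 2-fold.

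**Figure D1:**
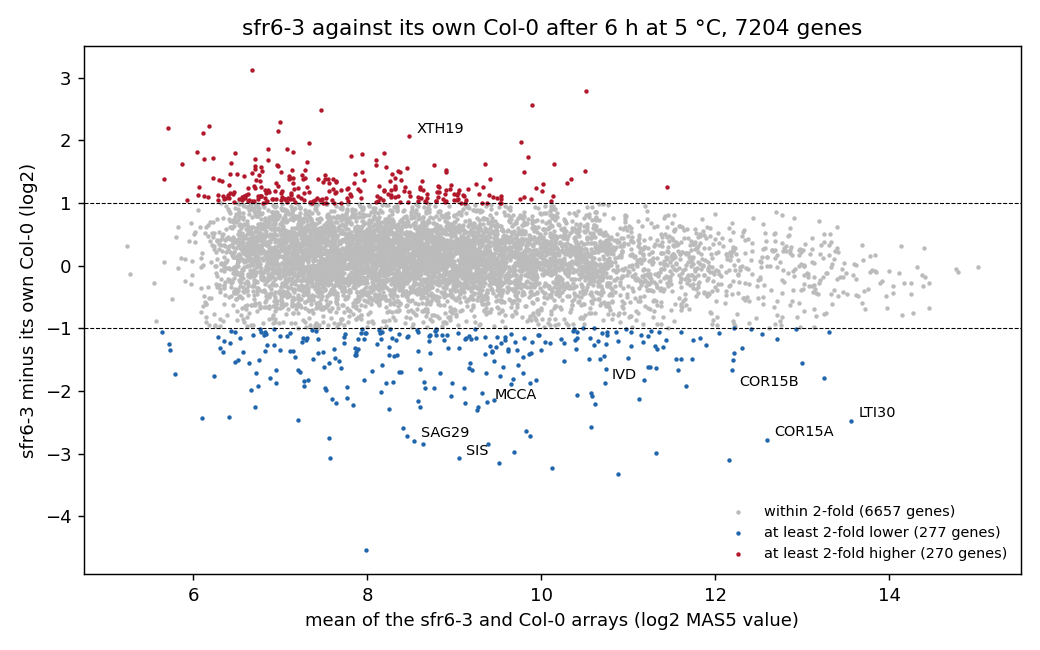
Each point is a gene, with the mean log2 MAS5 value of the sfr6-3 array and its own Col-0 array on the x axis and their difference in log2 units on the y axis. Dashed lines mark 2-fold; blue and red points are the 277 lower and 270 higher genes, and the red points thin out among bright genes while the blue ones, COR15A, COR15B and LTI30 among them, reach high levels.

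Genes of the cold response were among the lower ones. Of 9 measured COR, dehydrin and related cold genes, 5 were at least 2-fold lower and 0 were higher, and their median difference was -1.49. Over all genes 3.85% were lower and 3.75% higher. This list, like the others below, was written from genes past the filter with earlier results of these data known. Its counts therefore describe the genes chosen and are no test of a family. COR15A, whose product protects chloroplast membranes during freezing, was at 13.99 in Col-0 and 11.21 in sfr6-3, and at 14.51 and 12.37 in the Col-0 and mutant of the sfr6-2 experiment. Both Col-0 arrays stood above both mutant arrays, and the difference in sfr6-3 was -2.78. LTI30, a dehydrin, was at 14.80 and 12.33 in Col-0 and sfr6-3 and at 15.21 and 13.48 in the other pair, a difference of -2.48 in sfr6-3.

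COR15B, which lies next to COR15A in the genome, fell by 1.66, from 13.02 to 11.36. STZ, a zinc-finger repressor of stress responses also called ZAT10, fell by 1.62, from 10.37 to 8.75. COR27, a cold-regulated gene that acts on the circadian clock, fell by 1.49, from 11.29 to 9.80, while in sfr6-2 its difference was -0.34. The other members did not reach 2-fold. SRC2 differed by -0.95, the dehydrin COR47 by -0.67, and TIL, a lipocalin induced by temperature, by -0.57. DI21 was level in sfr6-3, with a difference of 0.12, whereas in sfr6-2 it fell by 1.02.

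Late embryogenesis abundant proteins, hydrophilic proteins made in seeds and under water loss, overlap this list in LTI30 and COR47. Of 9 measured members, 3 were lower and 0 higher, with a median of -0.64. LEA4-5 was at 8.23 in Col-0 and 6.31 in sfr6-3, and at 9.95 and 8.50 in the other pair, so both mutants were below their own wild type. M17 went from 8.33 to 6.78 in sfr6-3 but from 4.38 to 7.19 in the sfr6-2 experiment. The value of 4.38 lay under the filter level, and with it raised the sfr6-2 difference was 0.73. For M17 the 2 wild-type arrays were the highest and the lowest of the 4.

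COR27 also had the largest difference among the clock and light-timing genes. Of 10 such genes 1 was lower and 1 was higher, and the median was 0.00. GI, a core component of the evening clock, was at 8.45 and 8.29 in Col-0 and sfr6-3 but at 11.45 and 11.96 in the sfr6-2 experiment. Each mutant was close to its own wild type in GI, and the 2 experiments stood far apart. FIO1, a gene that affects the period of the clock, was higher at 6.92 against 5.84, although the Col-0 value lay under the filter level.

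The 12 genes with the lowest difference, ranked after dim values were raised to the filter level, held 3 genes with a name. Besides COR15A these were SIS and SAG29. SIS, a gene named for salt induction, was at 10.59 in Col-0 and 7.52 in sfr6-3, and at 8.37 and 6.47 in the sfr6-2 pair. SAG29, which is the sucrose transporter SWEET15, was at 9.94 and 7.14, and at 8.96 and 3.28 in the sfr6-2 pair. The value of 3.28 lay under the filter level, and with it raised the sfr6-2 difference was -2.50. Both SIS and SAG29 were lower in each mutant than in its own wild type.

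The other 9 have only a locus identifier. AT1G19530 fell the most, from 10.25 to 5.71, and in sfr6-2 it differed by only -0.31. The rest of the 12, such as AT1G79660 at -3.33, AT1G68500 at -3.23 and AT1G48100 at -3.15, were all at least 2-fold lower in sfr6-2 as well, so that 11 of the 12 were lower in both alleles. Against the wild type of the sfr6-2 experiment, 11 of the 12 were also at least 2-fold lower in sfr6-3, the exception being SIS at -0.85.

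The 12 highest genes behaved differently. AT1G73600 had the largest difference, with 9.12 in Col-0 and 11.91 in sfr6-3, and with 8.90 and 11.65 in the other pair. AT5G01870 was at 8.61 and 11.18, and at 9.31 and 10.98 in the other pair. In both genes the mutant arrays stood together above the wild-type arrays. Of the 12, only 4 were at least 2-fold higher in sfr6-2 too, and 4 had the opposite sign there. XTH19, the 1 member with a name, was at 7.45 in Col-0 and 9.51 in sfr6-3, but at 9.32 and 9.13 in the sfr6-2 experiment. The Col-0 beside sfr6-3 was the low one of the 4 arrays. AT3G20240 showed the same order, with 7.05 in that Col-0 array and values from 8.65 to 8.84 in the other 3.

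**Figure D2:**
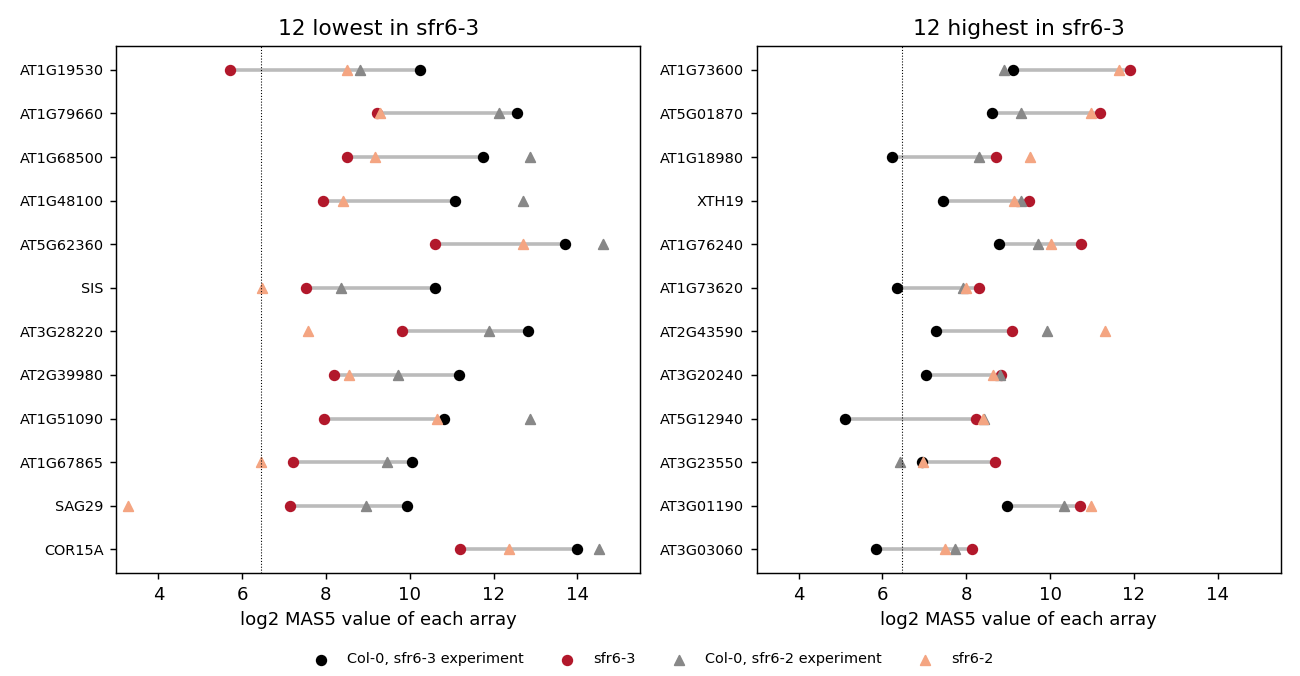
Log2 MAS5 values in all 4 arrays are plotted on the x axis for the 12 lowest (left) and 12 highest (right) genes in sfr6-3. Circles are the sfr6-3 experiment and triangles the sfr6-2 experiment, grey bars join sfr6-3 to its own Col-0, and the dotted line is the filter level of 6.46. On the left the mutants mostly lie left of both Col-0 arrays, and on the right the Col-0 beside sfr6-3 often lies apart from the other 3.

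Enzymes that break down branched-chain amino acids and lysine had more lower members for their number than the other metabolic lists described here. Of 9 measured, 4 were lower and 0 higher, with a median of -0.68. MCCA and MCCB are the subunits of methylcrotonyl-CoA carboxylase, and IVD is isovaleryl-CoA dehydrogenase, which acts just before it in the breakdown of leucine. MCCA went from 10.47 to 8.29 in sfr6-3, and from 9.43 to 8.88 in the sfr6-2 pair. IVD went from 11.67 to 9.79, and from 10.18 to 9.59 in the other pair. In both genes the Col-0 beside sfr6-3 was the highest of the 4 arrays.

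AT4G33150, the LKR/SDH enzyme of lysine breakdown, fell by 1.14, from 9.02 to 7.88. ALDH6B2, a dehydrogenase of valine breakdown, fell by 1.05, from 11.28 to 10.23. MCCB did not reach 2-fold, at -0.68. The electron carriers that take up electrons from IVD showed small differences, with ETFQO at -0.32, ETFALPHA at -0.05 and ETFBETA at 0.06. Against the wild type of the sfr6-2 experiment the median of the 9 was 0.11, MCCA was at -1.15 and IVD at -0.39, so the size of this difference depended on which wild-type array was used.

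Other genes of carbon and nitrogen use showed the same dependence. PPDK, which regenerates phosphoenolpyruvate from pyruvate, was at 11.70 in Col-0 and 10.59 in sfr6-3, and at 9.74 and 9.55 in the sfr6-2 pair. GAT1_2.1, a glutamine amidotransferase, was at 10.41 and 8.10, and at 7.58 and 7.17 in the other pair. AKINBETA1, a subunit of the energy-sensing kinase SnRK1, was at 10.72 and 9.48, and at 8.74 and 8.30 in the other pair. All 3 were lower in sfr6-3 than in its own Col-0 and higher than in the Col-0 of the other experiment. These 3 genes were singled out after their values had been seen.

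Of 12 sugar transporters, 2 were lower and 0 higher, with a median of -0.24, which turned to 0.23 against the wild type of the sfr6-2 experiment. Beside SAG29, the hexose transporter SWEET4 fell by 1.66, from 7.78 to 6.12, with the sfr6-3 value under the filter level. The vacuolar transporters SWEET16 and TMT1 differed by -0.80 and -0.75, short of 2-fold, while SWEET11 and SWEET13 were at 0.20 and 0.32. Of 11 autophagy genes 0 were past 2-fold, with ATG8F lowest at -0.72. Among 21 enzymes of the citrate cycle, glycolysis and respiration 0 were lower and 1 was higher, the phosphoglycerate mutase-type gene PGM, whose Col-0 value of 5.66 lay under the filter level. The median of the 21 was 0.27. Against the other wild type both turned, PGM to -0.43 and the median to -0.13.

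Membrane lipids and wax gave single genes rather than groups. Of 17 genes for membrane lipids, fatty acids and sterols 1 was lower, and the median was 0.05. That gene was CCT2, an enzyme of phosphatidylcholine synthesis, at 10.64 and 8.93 in Col-0 and sfr6-3 and at 11.34 and 8.59 in the other pair. It was lower in both mutants. The wax gene CER26 (AT4G13840) was higher, at 8.70 and 9.96, and its difference in sfr6-2 was 0.57.

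Genes encoded in the plastid had a larger share of lower members than all genes. Of 68 measured, 8 were at least 2-fold lower, which is 11.8% against 3.85% of all genes, 0 were higher and the median difference was -0.37. Many plastid genes were bright, and among the 1441 brightest of all genes 5.14% were lower and 0.833% higher. The 8 lower plastid genes were petL of the cytochrome b6f complex at -1.32, ndhG and ndhE of the NADH dehydrogenase-like complex at -1.15 and -1.10, the ribosomal genes rps14 and rps18 at -1.12 and -1.05, rpoA of the plastid RNA polymerase at -1.07, the protease gene clpP at -1.02 and the photosystem II gene psbN at -1.02. Against the wild type of the sfr6-2 experiment rps14 was at 1.84 and ndhG at 0.46, and psbN missed 2-fold, at -0.98, once its dim sfr6-3 value was raised. In sfr6-2 the same 68 genes had a median of -0.07, and none of the 8 reached 2-fold there, the lowest being petL at -0.59.

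Within each plastid complex the members were uneven. The 9 genes of the NADH dehydrogenase-like complex had a median of -0.63 and ran from -1.15 in ndhG to 0.25 in ndhH. All 6 genes of the cytochrome b6f complex were below 0, or 5 of them under quantile normalization, with a median of -0.38, and petB was closest to 0 at -0.18. Photosystem I genes lay nearest to no difference, with a median of -0.02, and psaA, psaI and psaJ were between -0.02 and 0.03, although ycf3 was at -0.84 and psaC at -0.67. The subunits of 1 polymerase split, since rpoA was at -1.07 and rpoB at -0.54 but rpoC1 and rpoC2 were at 0.03 and 0.01.

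Nuclear genes of photosynthesis leaned the same way by less than 2-fold. Of 15 genes for photosystem, antenna and electron-transport proteins, 13 were below 0, 1 was 2-fold lower and 0 were higher, with a median of -0.42. LHCB4.3, a minor antenna protein of photosystem II, went from 8.30 to 7.16, while in the sfr6-2 pair it was at 8.29 and 8.38. Its bright relatives LHCB4.2 and LHCB4.1 differed by -0.98 and -0.09. All 5 enzymes of carbon fixation and photorespiration were below 0 without reaching 2-fold, from PRK at -0.48 to RCA, the activase of Rubisco, at -0.10, and 4 of the 5 were below 0 under quantile or cyclic loess normalization. The median of those 5 against the other wild type was -0.38, the same as against their own.

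**Figure D3:**
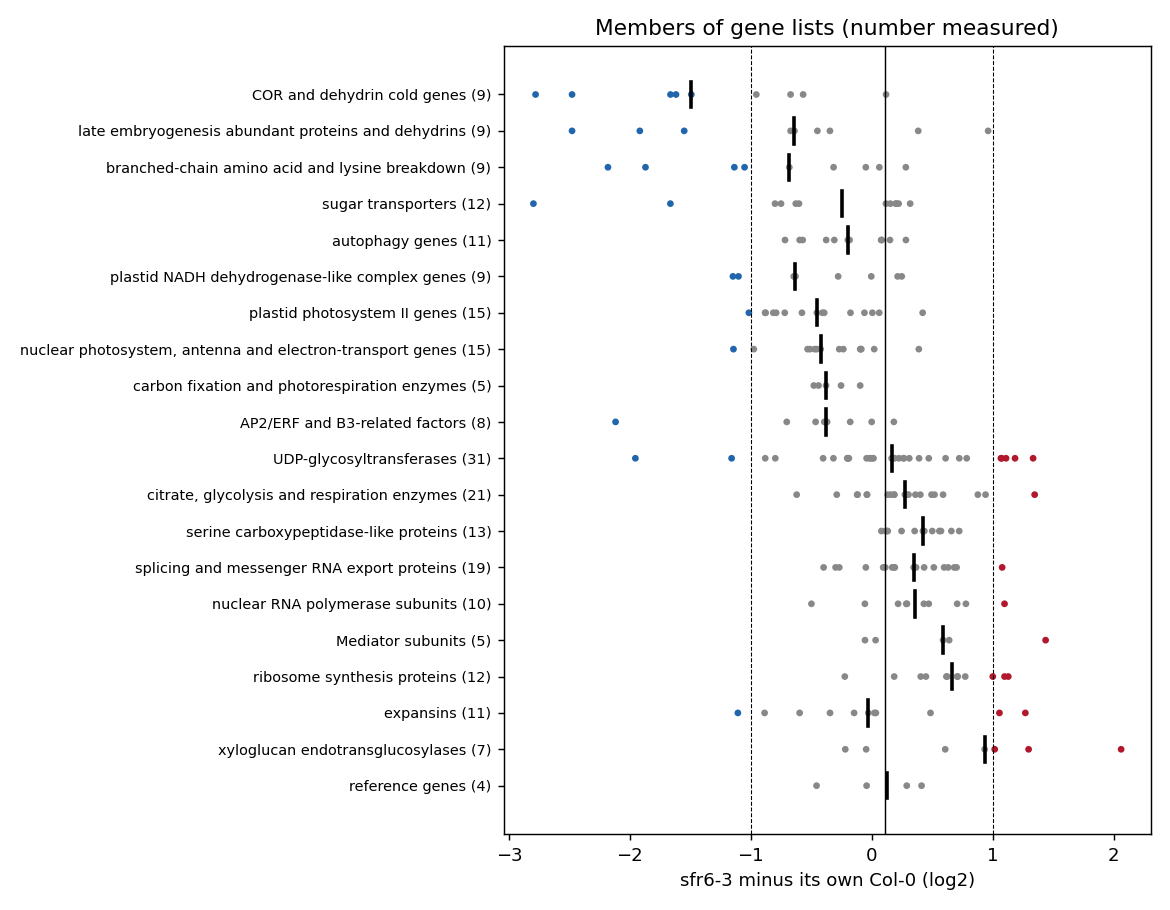
Each point is a measured member of a gene list, with its difference between sfr6-3 and its own Col-0 in log2 units on the x axis. Thick bars are list medians, the solid line is the median of all 7204 genes (0.11) and dashed lines are 2-fold, with members past them in blue (lower) or red (higher). Of the lists drawn, the cold genes have the lowest median and the xyloglucan endotransglucosylases the highest.

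Several cell wall genes were higher in sfr6-3, but not in every list of wall genes. Over all genes 3.75% were higher and 3.85% lower. Of 15 cellulose synthase-like and wall glycosyltransferases 0 passed 2-fold, with a median of 0.35. Of 18 trichome birefringence-like proteins 0 passed 2-fold, with a median of 0.21. Xyloglucan endotransglucosylases cut and rejoin the xyloglucan chains that tether cellulose. Of 7 measured, 3 were higher and 0 lower, with a median of 0.93, and 2 were higher under each other scaling, where XTH18 missed 2-fold. Besides XTH19 these were XTH18, its neighbour in the genome, at 7.87 in Col-0 and 8.88 in sfr6-3, and XTH33 at 8.60 and 9.90. XTH18 and XTH19 were at 8.44 and 9.32 in the Col-0 of the sfr6-2 experiment, and the 7 genes had a median of -0.18 in sfr6-2.

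Expansins, which loosen walls, went both ways. Of 11 measured, 1 was lower and 2 were higher, with a median of -0.03, while quantile or cyclic loess normalization gave 2 lower and 1 higher and the median against the other wild type was -0.62. EXPA4 was at 8.17 and 9.44 in Col-0 and sfr6-3 and at 8.24 and 9.63 in the other pair, so it was higher in both mutants. EXLA2 went from 10.52 to 9.41, and from 10.38 to 8.71 in the other pair, so it was lower in both. EXPB1, the remaining higher gene, had a Col-0 value of 5.76, under the filter level. All 5 family 9 endoglucanases were above 0, or 4 of them under cyclic loess or median centring, with a median of 0.37, but their median was -0.76 against the wild type of the sfr6-2 experiment and -0.19 in sfr6-2. GH9B13 was higher by 1.24, with its Col-0 value of 6.01 under the filter level.

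Class III peroxidases of the wall were divided, with 1 of 5 lower and 1 higher, and their median was 0.71 against their own Col-0 and -0.11 against the other. PRX71 (AT5G64120) was at 10.41 and 8.65 in Col-0 and sfr6-3, and at 10.76 and 9.45 in the other pair, lower in both mutants. Prx37 was at 6.54 and 7.71, and at 7.81 and 8.02 in the other pair, so that the Col-0 beside sfr6-3 was again the low one.

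In sfr6-3, genes for nuclear proteins that make and process RNA tended to be above the median of all genes, 0.11, without reaching 2-fold. The 11 organelle RNA editing and splicing factors did not, with a median of 0.04. Of 5 other Mediator subunits, 1 was higher, MED9, at 5.86 in Col-0 and 7.30 in sfr6-3 and at 5.97 and 7.23 in the other pair. The mutants stood above the wild types in both experiments, with both wild-type values under the filter level. MED31 differed by 0.64 and MED6 and MED19A by 0.03 and -0.06. Of 10 subunits of the nuclear RNA polymerases, 1 was higher, NRPA1, the largest subunit of RNA polymerase I, at 8.26 and 9.36, while the 10 had a median of 0.36. NRPA1 missed 2-fold under cyclic loess, at 0.96, and was at -0.25 in sfr6-2. In sfr6-2 the 5 Mediator subunits had a median of 0.32 and the 10 polymerase subunits -0.03, against 0.08 for all genes.

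Splicing and messenger RNA export proteins had a median of 0.35 over 19 genes, with 1 higher, PRP39-2, and 0 lower. PRP39-2 had a Col-0 value of 5.87, under the filter level, and missed 2-fold under each other scaling. Members at higher levels differed less, with Y14 at 0.70, SE at 0.68 and the U2AF subunit ATU2AF65A at -0.05. Chromatin remodelling and histone-modifying proteins had a median of 0.28 over 16 genes, and CHR24 alone was past 2-fold, though not under quantile or cyclic loess normalization. Its Col-0 value of 6.22 lay under the filter level, and its difference was 0.87 once that value was raised. In sfr6-2 CHR24 was at -0.64. The medians in sfr6-2 were 0.11 for the splicing and export proteins and -0.02 for the chromatin proteins, against 0.08 for all genes. With sfr6-3 set against the Col-0 of the sfr6-2 experiment they were 0.22 and 0.17, also against 0.08 for all genes.

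A list of 12 proteins that make ribosomal RNA or assemble ribosomes was drawn up after these values had been seen, and is given only as a description. It had 3 higher and 0 lower members and a median of 0.66, with 2 higher under quantile normalization or median centring and 1 under cyclic loess. The 3 were NRPA1, the nucleolar protein YAO, which went from 8.54 to 9.66, and RBL (REBELOTE), which went from 8.81 to 9.81. YAO and RBL were at 9.60 and 9.80 in the Col-0 of the sfr6-2 experiment, close to their sfr6-3 levels. Against that array the median of the 12 was -0.03.

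**Figure D4:**
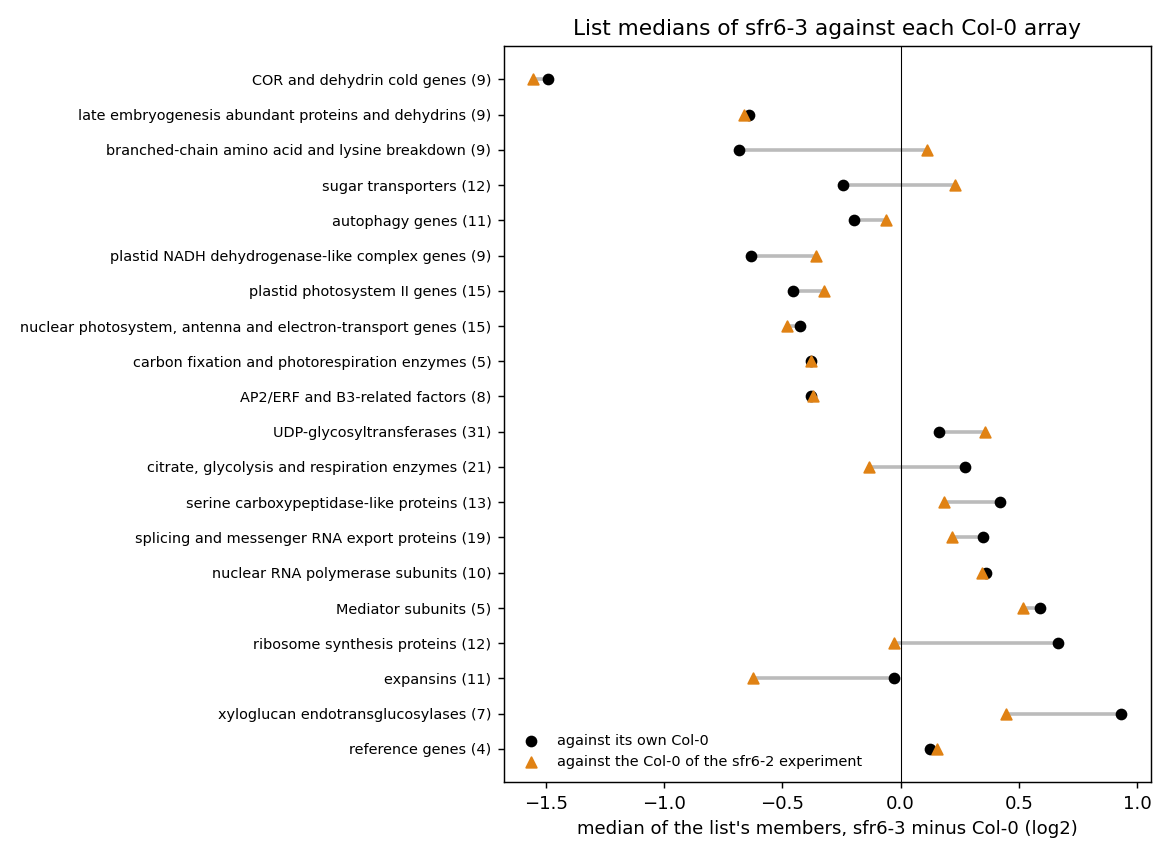
For the same gene lists, the median of the members' differences in log2 units is shown with sfr6-3 set against its own Col-0 (black circles) and against the Col-0 of the sfr6-2 experiment (orange triangles). Cold genes, carbon fixation enzymes and RNA polymerase subunits keep nearly the same median, whereas amino acid breakdown (-0.68 and 0.11) and ribosome synthesis (0.66 and -0.03) do not.

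UDP-glycosyltransferases, which attach sugars to small molecules, were the largest family described and went both ways. Of 31 measured, 2 were lower and 5 were higher, with a median of 0.16, but cyclic loess gave 3 lower and 3 higher and median centring 2 lower and 3 higher. UGT76B1, which glucosylates isoleucic and salicylic acid, was at 7.83 and 9.02 in Col-0 and sfr6-3 and at 7.84 and 9.37 in the other pair. UGT78D1, a flavonol rhamnosyltransferase, was at 8.95 and 10.02, and at 8.68 and 9.78 in the other pair. In these 2 genes the mutant arrays were above the wild-type arrays in both experiments.

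UGT73B4 and its genomic neighbour UGT73B5 were higher by 1.33 and 1.07 in sfr6-3, with differences of 0.43 and 0.60 in sfr6-2. UGT85A2 was higher by 1.11. UGT72B3 went the other way, from 9.74 to 7.79, and from 10.09 to 8.52 in the other pair. UGT76E2 fell by 1.16, with its sfr6-3 value of 5.96 under the filter level. Of 13 serine carboxypeptidase-like proteins 0 passed 2-fold, yet none was below 0, with values from 0.08 to 0.72 and a median of 0.42, although cyclic loess put 2 and median centring 1 of them just below 0.

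Defence genes of the jasmonate and pathogen responses had 3 lower members and 1 higher of 11, with a median of -0.19. PDF1.2, a defensin, was at 7.77 and 5.98 in Col-0 and sfr6-3 and at 7.79 and 6.29 in the other pair, lower in both mutants. Both mutant values lay under the filter level, and with them raised the differences were -1.32 in sfr6-3 and -1.33 in sfr6-2. OPCL1, an enzyme of jasmonate synthesis, fell by 1.17 and the osmotin OSM34 by 1.16, while in sfr6-2 they differed by -0.20 and -0.14. The higher member was UGT76B1. BCAT4, which starts the chain elongation of methionine for glucosinolates, went from 9.57 to 7.72 in sfr6-3 and from 5.98 to 7.95 in the sfr6-2 experiment. The value of 5.98 lay under the filter level.

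Transcription factors gave single genes. TINY (tny), an AP2/ERF factor related to the CBFs, was at 8.83 in Col-0 and 6.71 in sfr6-3 and at 9.97 and 7.55 in the other pair, lower in both mutants. It was the 1 gene past 2-fold among 8 AP2/ERF and B3-related factors, whose median was -0.38, and its close relative TINY2 was level at 6.62 in both arrays. Of 16 bHLH factors, bHLH94 (AT1G22490) was lower, from 8.96 to 7.37, and ATMYC1 was higher, from 7.12 to 8.59. Of 5 WRKY factors WRKY47 was lower, from 7.90 to 6.44. Of 14 bZIP factors 0 passed 2-fold.

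Of the 1154 genes with a name, 53 were lower and 45 were higher in sfr6-3. Of the 53, 16 were at least 2-fold lower in sfr6-2 as well and 6 had the opposite sign there, while of the 45 higher genes 4 were at least 2-fold higher in sfr6-2 and 10 had the opposite sign. Among those outside the lists above, SERPIN1, a protease inhibitor, was at 11.56 and 9.92 in Col-0 and sfr6-3 and at 13.13 and 10.46 in the other pair. GID1B, a gibberellin receptor, was at 9.05 and 7.63, and at 9.05 and 8.11 in the other pair. SERPIN1 was lower in both mutants, while GID1B stayed short of 2-fold in sfr6-2, at -0.94. PYRB and FAC1, enzymes of pyrimidine synthesis and of adenylate turnover, were higher by 1.07 and 1.31, with differences of 0.53 and 0.29 in sfr6-2. ICU2, the catalytic subunit of DNA polymerase alpha, was higher by 1.27, with a Col-0 value of 6.33 under the filter level. These genes were chosen from the named genes after their values had been seen.

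Across all genes, the overlap with the other allele was uneven between directions. The sfr6-2 comparison used neither of these arrays, and it had 258 lower genes (3.58%) and 120 higher genes (1.67%). Of the 277 genes lower in sfr6-3, 115 were at least 2-fold lower in sfr6-2, which is 41.5% of the first list and 44.6% of the second. Of the 270 genes higher in sfr6-3, 21 were at least 2-fold higher in sfr6-2, or 7.78% of the first list and 17.5% of the second. The genes lower in sfr6-3 had a median of -0.74 in sfr6-2, and the higher ones a median of 0.27. The difference between the alleles was not tested.

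**Figure D5:**
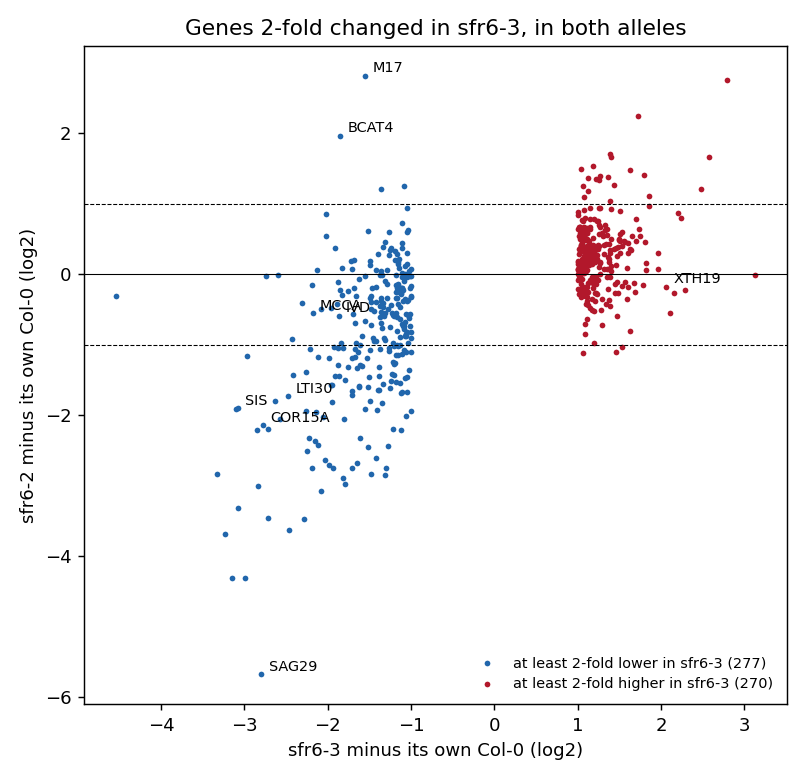
Each point is a gene at least 2-fold changed in sfr6-3, with its log2 difference in sfr6-3 on the x axis and in sfr6-2 on the y axis, each against its own Col-0. Dashed lines mark 2-fold in sfr6-2, and values under the filter level are not raised. Many of the 277 lower genes (blue) lie below the lower line, SAG29 lowest, whereas most of the 270 higher genes (red) lie between the lines, and BCAT4 and M17 lie on the opposite side.

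Set against the wild type of the sfr6-2 experiment in place of its own, sfr6-3 still differed at least 2-fold the same way in 141 of the 277 lower genes (50.9%) and in 48 of the 270 higher genes (17.8%). The opposite sign was found for 63 of the lower and 49 of the higher genes. In 237 of the 270 higher genes the Col-0 beside sfr6-3 was the lowest of the 4 arrays, and in 173 of the 277 lower genes it was the highest. Part of this is fixed by the choice of the genes, which used that array.

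Some genes that changed were neighbours in the genome. Of 2168 pairs of adjacent measured genes, 7 were both lower and 4 were both higher. Among single genes 3.85% were lower and 3.75% higher, and pairs of both kinds arise from those shares without any link between neighbours. Whether neighbours changed together more often was not tested. The lower pairs included COR15B with COR15A, the plastid genes ndhE with ndhG, and AT5G62350 with AT5G62360, with differences of -1.06 and -3.11. The higher pairs included XTH18 with XTH19 and UGT73B5 with UGT73B4. Close to SFR6, MSRB6, a methionine sulfoxide reductase 9 genes away, was lower by 1.06, with a difference of -0.85 in sfr6-2. AT4G04940, 3 genes away, was higher by 1.49, with a difference of -0.26 in sfr6-2. The other measured genes looked at nearby were short of 2-fold in sfr6-3. They were MSRB3 at -0.48, MSRB5 at 0.76, DER2.2 at 0.22, AT4G04880 at 0.28 and ALN at -0.12.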

How the data were processed

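Labelled RNA of 4 seedling samples, 1 for each group, was read on Affymetrix arrays, each in a single colour. The deposited values are log2 expression values that the authors made, per the submitters' processing notes, by MAS5 in affy 1.36.1. No build is given in the sources used here. On the linear scale each array's mean, trimmed at both ends, was 500, so arrays were scaled one by one and were not normalized further here. Precision is limited by how few arrays there are.

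Of 22810 probe sets 64 were controls. The platform annotation paired 13513 with 1 gene, 503 with several, and left 8730 unnamed. Names were updated through the TAIR10.1 gene table for 13436. For a gene with several probe sets, the one with the highest mean was used. The 7204 genes kept have a mean of at least 6.46. Their differences were taken in Python 3.11.15 with pandas 2.3.3. Simulated shifts without noise were used to check the counting code, which says nothing of the precision of the data.

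Named genes are the 12 lowest and 12 highest, the 6 and 6 that differ most from sfr6-2, all measured CBF-regulated and circadian genes, and up to 4 members of a list in its main direction and 2 in the other. Only 1154 of the 7204 genes have a name, so lists were drawn from these. Members and lists were chosen with earlier results of these data known. The 72 lists first written held 34 with 3 or more named members, and 74 hand-curated lists replaced them. No test was run, since each group has 1 array. Normalization alternatives used limma 3.58.1 in R 4.3.3.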

Additional observations from a re-analysis of the deposited data

Results flagged for a closer look

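Of the 277 genes lower in sfr6-3, 4 were at least 2-fold higher in sfr6-2, each against its own Col-0. Of the 270 higher genes, 3 were at least 2-fold lower there. The 5 of these genes that were flagged are described here. With 1 array a group, these differences were not tested. BCAT4 was at -1.85 in sfr6-3 and 1.97 in sfr6-2, and M17 at -1.55 and 2.81. AT3G10530 was at 1.53 and -1.02, AT5G62340 at 1.46 and -1.10, and AT3G50640 at 1.06 and -1.12. In BCAT4 and M17 the Col-0 of the sfr6-3 experiment was the highest of the 4 arrays, at 9.57 and 8.33, and the Col-0 of the sfr6-2 experiment the lowest, at 5.98 and 4.38. In the other 3 the Col-0 of the sfr6-3 experiment was the lowest, at 8.14, 7.56 and 6.38, and the other Col-0 was at 9.38, 9.45 and 7.79. The part of the experiment in these values was not tested.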

How the results depend on the processing

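No paired analysis was possible because each group has 1 array, and no replicate could be left out. The counts of genes at least 2-fold lower and higher in sfr6-3, 277 and 270, were recomputed under each alternative. With no filter they were 1531 and 1708 of 13355 genes, with a 60th percentile filter 180 and 112 of 4551, at 3-fold 97 and 36, and at 1.5-fold 698 and 1067. Cyclic loess gave 364 lower and 155 higher genes, quantile normalization 319 and 181, and median centring 339 and 190, so the near balance of the directions depends on the scaling. Adding the 20th percentile before logs gave 234 and 167. Averaging a gene's probe sets left 277 and 270. With the wild type of the sfr6-2 experiment as control the counts were 354 and 346, of which 141 and 48 were shared with the counts against its own Col-0. Under the loess fit the median of all genes was -0.02 in place of 0.11.

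Of 124 genes past 2-fold that were followed singly, some of them known only by a locus identifier, 0 changed sign under the 5 alternatives of scaling and of dim values, and 16 to 26 no longer reached 2-fold. The lack of sign changes was largely fixed in advance. Raising dim values or adding a constant before logs cannot reverse a sign. Median centring shifts every difference by the same amount, too small to reverse a 2-fold one. With the other wild type 24 changed sign and 55 kept it without reaching 2-fold. Genes lower against their own Col-0 were then at 2.91 for AT1G25400, 2.40 for M17, 1.84 for rps14, 1.74 for BCAT4, 0.91 for CCL, 0.85 for PPDK, 0.79 for AT1G31550, 0.74 for AKINBETA1, 0.52 for GAT1_2.1, 0.46 for ndhG, 0.24 for Fes1B, 0.14 for AT4G37220, 0.10 for AT1G22490 and 0.059 for ATL8. Genes higher against their own Col-0 were at -1.27 for ATC, -0.83 for AT2G43590, -0.54 for AT1G31850, -0.43 for AT5G62340, -0.43 for PGM, -0.35 for AT3G50640, -0.26 for SBT4.12, -0.24 for GSTU22, -0.18 for AT5G12940 and -0.11 for Prx37. The cause was not tested. Medians of the 74 lists moved by no more than the standard deviation of their members under the alternatives of scaling and dim values. That bound is wide, and a median near 0 could change sign within it. The photosystem I median went from -0.02 to 0.10 under quantile normalization. The lists were drawn from genes past the filter, so dropping the filter could hardly move their medians.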

Other observations

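Between the alleles, the genes with the largest gaps after dim values were raised included some that did not change in sfr6-3. AT3G02480 was at 8.34 in Col-0 and 8.12 in sfr6-3, but at 7.39 and 10.40 in the sfr6-2 pair. AT4G21870 was at 11.76 and 11.62, and at 11.99 and 9.73 in the sfr6-2 pair. The gap in AT1G19530 came from sfr6-3, at 5.71, since the other 3 arrays ran from 8.51 to 10.25. In AT1G25400 the arrays of the 2 experiments stood apart, at 11.58 and 9.56 in Col-0 and sfr6-3 and at 6.65 and 7.19 in the other pair.

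Where a gene had several probe sets past the filter, as 74 genes did, the difference between sfr6-3 and Col-0 varied between them by a median of 0.26. In 8 genes it varied by over 1 and in 0 genes did the probe sets pass 2-fold in opposite directions. The 3′ to 5′ signal of the control transcripts, on the log2 scale, was -0.14 in Col-0 and -0.19 in sfr6-3 for GAPDH, 0.72 and 0.66 for actin, and 0.14 and 0.30 for ubiquitin. In the probe sets of the first array design it was 0.45 and 0.18 for GAPDH, 3.61 and 3.67 for actin, and 1.19 and 1.04 for ubiquitin.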
